A study of Mus musculus with 4 samples.

Results

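The genes described are 43 listed growth factor and receptor genes of 27656 gene names measured on the arrays, 26 ligands and 17 receptors. A gene was found by its symbol on a non-control probe, and the brightest of its probes stands for it. Growth factors are secreted or membrane-held ligands, and most of the receptors considered here are receptor tyrosine kinases, which pair at the cell surface when a ligand binds and then phosphorylate themselves and the relay proteins docked on them. Through Ras, the MAP kinases, phosphatidylinositol 3-kinase and the Stat proteins they drive division, survival and movement. Fibroblasts are the classical cells of this biology, since serum and platelet factors release them from quiescence and crowding stops them. Some of the receptors lack a tyrosine kinase of their own, namely Igf2r, which takes IGF2 to the lysosome, Ngfr, the low-affinity neurotrophin receptor, and Ghr, the growth hormone receptor, which signals through Jak2.

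The samples were embryonic fibroblasts (MEFs) of C57BL/6J mice, labelled Lats2-/- (called KO below) or Lats2+/+ (WT). Lats2 belongs to the Hippo kinases, which hold back the coactivators Yap and Taz, and Hippo activity rises with cell contact, so the design asks how crowding changes expression with and without Lats2. All cells grew in DMEM with 10% inactivated serum. Low density cells were taken after 48 h, before confluence, and high density cells after 3 to 5 days, so time in culture changed together with density and the density effect includes it. Each of the 4 arrays carried 1 high and 1 low density RNA of 1 genotype in the dyes Cy5 and Cy3, and the second array of a genotype had the dyes swapped. A swapped pair counted as 1 replicate, so there was 1 sample for each genotype and density, no test was possible, and the spread quoted is technical. A gene was called higher or lower where the mean log2 difference reached 1 (2-fold) and neither array, or for genotypes neither dye, had the opposite sign.

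The KO arrays lay on 2 slides scanned at separate times and the WT arrays on 1 other slide, so slide and genotype cannot be told apart. Of 4 Lats2 probes, 3 were higher on the arrays labelled KO, by 1.18 to 1.39 at low and 0.90 to 1.49 at high density (log2), and 1 was lower, by -0.64 and -1.27. The 3 higher probes lie close together (within chr14:56644080-56645305, mm8) and the lower probe lies apart, at chr14:56676512-56676571. The study also has a western blot for Lats2 in its KO MEFs, presented as evidence of the knockout and not measured here. Which probes lie in the deleted part is not given in the sources used here, and the genotypes are therefore named as labelled throughout. Of 9 fibroblast genes, 8 were above background in all 8 channels. Of 8 macrophage and 8 endothelial genes, 2 and 1 were above background in all channels. The macrophage genes Emr1, Ptprc and Itgam and the endothelial genes Pecam1, Cdh5, Tek, Tie1 and Emcn were above background in no channel. Of 4 skeletal muscle genes 3, and of 6 epithelial genes 4, were also above background in no channel. Of the 7 neural and glial genes measured, S100b and Tubb3 were above background in all channels, and Dcx alone was in none. Between 52.8% and 67.7% of spots were well above background in a dye, and no spot was saturated.

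Of the 43 genes, 28 were well above background in all 8 channels, 13 in some and 2 in none. The genes in no channel were Kit, the stem cell factor receptor, and Fgf1. Pdgfb, Tgfa, Erbb3, Insr and Ngfr reached background on single arrays and entered no comparison. Among the other genes, 23 were called in at least 1 of the 5 comparisons (63.9%, against 30.9% of 16137 gene names) and 13 in none. The list was chosen with earlier results of these data known, so its shares here and below describe the list and are no measure of enrichment. Low signals near background are compressed by the background correction, so a difference between dim signals is understated.

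For 7 genes called in the same direction at high density in both genotypes, the bases before the start are shown where they hold the letters searched, so that the sequence can be read beside the values. The 250 bases before the start were searched on both strands for GGAATG, the core bound by the TEAD partners of Yap, for TGA and TCA parted by any 1 base, bound by AP-1, and for TATAAA, the TATA box. RefSeq windows (build GRCm38.p6) were at hand for 32 of the 43 genes. The windows of Pdgfra, Fgf18 and Vegfc held none of these letters, and Hbegf, the seventh gene, was not searched. The windows that held some are on the plus strand. Capitals mark GGAATG and then the AP-1 letters in the first Bdnf window, GGAATG read on the other strand in the second, the AP-1 letters in Igf1 and TATAAA in Vegfd, the current symbol of Figf. The marked letters do not overlap.
Bdnf, chr2:109676782-109677031: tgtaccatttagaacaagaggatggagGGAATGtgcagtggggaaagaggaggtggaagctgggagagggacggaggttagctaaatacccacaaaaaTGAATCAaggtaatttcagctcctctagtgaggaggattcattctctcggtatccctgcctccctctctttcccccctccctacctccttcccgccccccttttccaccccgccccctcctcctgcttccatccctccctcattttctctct
Bdnf, chr2:109722671-109722920: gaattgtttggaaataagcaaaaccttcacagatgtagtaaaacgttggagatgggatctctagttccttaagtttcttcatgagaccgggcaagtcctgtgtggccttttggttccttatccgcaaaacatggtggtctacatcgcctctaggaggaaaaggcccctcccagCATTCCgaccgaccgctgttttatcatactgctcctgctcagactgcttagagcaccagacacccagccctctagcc
Igf1, chr10:87860861-87861110: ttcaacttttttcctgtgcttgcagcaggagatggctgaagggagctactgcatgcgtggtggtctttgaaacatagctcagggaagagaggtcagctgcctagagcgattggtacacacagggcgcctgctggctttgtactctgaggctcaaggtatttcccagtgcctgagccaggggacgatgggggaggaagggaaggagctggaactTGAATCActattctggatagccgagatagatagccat
Vegfd, chrX:164373272-164373521: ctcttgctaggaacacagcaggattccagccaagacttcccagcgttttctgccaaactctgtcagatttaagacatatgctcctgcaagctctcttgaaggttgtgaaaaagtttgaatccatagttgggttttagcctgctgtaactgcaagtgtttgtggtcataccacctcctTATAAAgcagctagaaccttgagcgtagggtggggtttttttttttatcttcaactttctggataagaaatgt
Bdnf has 7 windows, of which 2 held GGAATG and 1 the AP-1 letters. GGAATG occurred in 12.6% of all 32851 promoter windows of that length and in 4 of the 46 windows of the listed genes. The AP-1 letters occurred in 6.75% and in 5 windows, and TATAAA in 12.4% and in 6 windows. A narrower AP-1 search, for TGAGTCA alone, was added after these matches were seen. It occurred in 4.46% of all windows and in 2 of the listed genes' windows, those of Ddr1 and Met, and no longer in Bdnf or Igf1. These matches describe letters and were not linked to binding.

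In WT cells, 12 of the 34 genes tested were higher at high density and 2 were lower. Over all 14875 gene names tested, 9.41% were higher and 6.09% lower. The median difference of the listed genes was 0.40 (log2), against 0.06 for all gene names. In KO cells, 6 of 33 were higher and 2 lower, against 7.15% higher and 3.87% lower of 15432 gene names, with medians of 0.38 and 0.06. Of the 31 genes tested in both genotypes, 7 were called the same way in both and none in opposite directions, against 5.75% and 0.233% of 14170 gene names. In bulk RNA, fewer cells of a type and less RNA per cell cannot be told apart. The gap between the 2 arrays of a pair had a median of 0.12 over the listed genes in WT and 0.17 in KO, and the SD of a single value was 0.14 and 0.20 over all gene names.

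**Figure D1:**
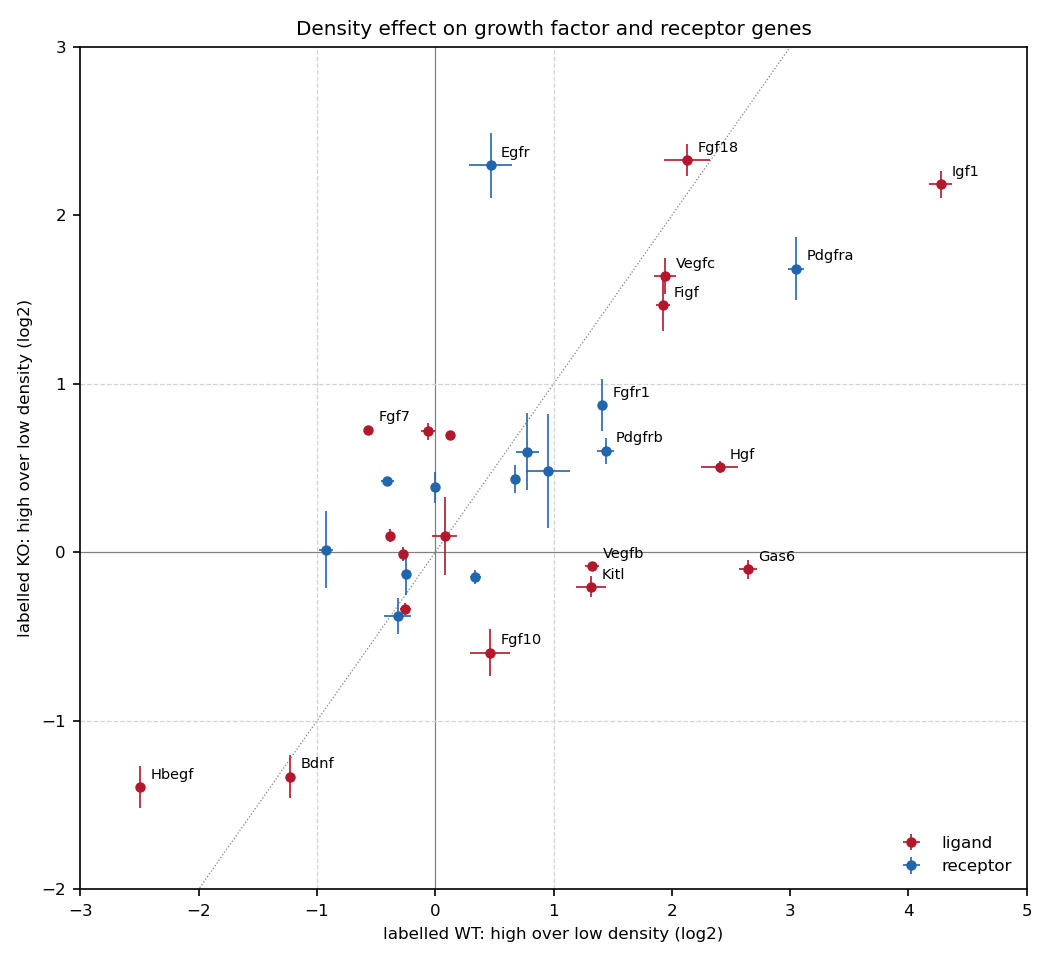
Density effect (log2 of high over low density) in WT cells on the x axis and KO cells on the y axis for the 31 genes tested in both. Points are means of the dye-swapped arrays, bars run from one array's value to the other's, dashed lines mark 2-fold and the dotted line equal effects. Igf1 sits at 4.27 and 2.18, Gas6, Kitl and Vegfb lie right of 1 but near 0 on the y axis, and Egfr stands at 0.47 and 2.30.

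Igf1, the growth factor that acts through Igf1r, had the largest density effect of the listed genes in WT cells. Its signal (log2) was 8.34 and 8.27 at low and 12.52 and 12.64 at high density in WT, and 11.15 and 11.17 against 13.42 and 13.28 in KO. It was lowest in WT cells at low density, and no 2 conditions overlapped. The density effect was 4.27 in WT (4.18 and 4.37 on the single arrays), a 19.3-fold difference, and 2.18 in KO (2.26 and 2.10). Between the 10 spots of this probe on an array (chr10:87360570-87360629, mm8), the SD of the effect was at most 0.05. The other 2 probes of Igf1 gave 2.74 and 3.23 in WT and 2.53 and 1.81 in KO.

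The receptors of this axis moved less. Igf1r, the IGF1 receptor, had -0.93 (log2) in WT, just short of the threshold, and 0.01 in KO, where its arrays differed in sign. Igf2r had 0.78 and 0.60. Ghr, through which growth hormone raises Igf1 in liver, had -0.41 in WT and 0.42 in KO, and was not called in either. Insr, the insulin receptor, was not above background on both arrays of any group.

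Pdgfra, the receptor for PDGF-A and PDGF-C that marks mesenchymal progenitors, was the receptor with the largest density effect in WT cells. Its signal was 6.83 and 6.37 at low and 9.81 and 9.48 at high density in WT, and 10.88 and 11.21 against 12.75 and 12.70 in KO. The order WT low, WT high, KO low, KO high held on both arrays. The effect was 3.05 (log2) in WT, an 8.27-fold difference, and 1.68 in KO. A second, dimmer probe was tested only in KO, at 0.66. Pdgfrb, the PDGF-B receptor of pericytes and fibroblasts, had 12.75 and 12.93 at low and 14.26 and 14.30 at high density in WT, and 13.64 and 13.95 against 14.32 and 14.47 in KO. It was called in WT at 1.44 and not in KO at 0.60. The ligands Pdgfa (-0.25 in WT and -0.34 in KO), Pdgfc (0.08 and 0.10) and Pdgfd (0.12 and 0.70) were not called.

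The listed VEGF family ligands Vegfb, Vegfc and Figf, which act mainly on blood and lymphatic endothelium, were called higher at high density in WT. Vegfa and Pgf, of the same family but outside the list, were not (-0.16 and 0.36, log2). Vegfc, the lymphatic growth factor, had signals of 8.66 and 8.74 at low and 10.70 and 10.58 at high density in WT, and 10.79 and 11.02 against 12.32 and 12.77 in KO. Figf (VEGF-D), its close relative, had 10.33 and 10.31 against 12.20 and 12.29 in WT, and 11.73 and 11.70 against 13.04 and 13.33 in KO. The effects were 1.94 and 1.64 (log2) for Vegfc and 1.92 and 1.47 for Figf, so both were called in both genotypes. Vegfb had 11.77 and 11.78 at low and 13.04 and 13.16 at high density in WT, while its KO signals lay between 13.59 and 13.76 at both densities. The effect was 1.33 in WT and -0.08 in KO.

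Of the FGF family, Fgf18, a ligand best known from bone and cartilage, had the largest density effect in both genotypes. Its signal was 7.50 and 7.21 at low and 9.43 and 9.53 at high density in WT, and 9.07 and 8.96 against 11.30 and 11.38 in KO. The effects were 2.13 and 2.33 (log2) and differed by 0.20, less than the gap of 0.39 between its WT arrays. Fgfr1, the main FGF receptor of mesenchyme, was called in WT, with 8.55 and 8.45 against 9.94 and 9.88, an effect of 1.41, and all 3 of its other probes were called too (up to 1.52). In KO its signals were 8.35 and 8.17 against 9.07 and 9.20, an effect of 0.87. Fgfr2 (0.67 and 0.44) and Fgfr3 (-0.25 and -0.13) were not called. Neither was Fgf2, the basic fibroblast growth factor, which in crowded WT cells was not above background and so lower by at least 1.30-fold, and which had 0.10 in KO.

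Hbegf and Bdnf were the genes called lower at high density. Hbegf, an EGF receptor ligand shed from the cell surface, had signals of 13.50 and 13.42 at low and 10.97 and 10.96 at high density in WT, and 11.49 and 11.44 against 9.97 and 10.17 in KO. Its effect was -2.49 (log2) in WT, a 5.63-fold lower signal, and -1.40 in KO. Bdnf, a neurotrophin that fibroblasts also make, had 11.87 and 11.83 against 10.63 and 10.61 in WT, and 12.07 and 12.26 against 10.87 and 10.80 in KO. Its effects of -1.23 and -1.33 differed by less than the spread between the KO arrays, and its second probe gave -1.29 and -1.35. Of the other EGF receptor ligands, Ereg had -0.28 and -0.01. Its second probe, placed on the opposite strand and above background at low density only, was at least 1.49-fold and at least 1.89-fold lower without being called. Areg was above background in WT at low density only, so that it was lower by at least 1.23-fold in crowded cells, and was not tested in KO.

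Gas6, Kitl, Hgf and Angpt1, like Pdgfrb, Fgfr1 and Vegfb, were called higher at high density in WT and not in KO. Angpt1 was not tested in KO. For Pdgfrb and Fgfr1 the KO effect minus the WT effect, at -0.84 and -0.53 (log2), did not reach 2-fold. Gas6, the ligand of Axl, Mertk and Tyro3, is named for growth arrest. Its signal was 10.04 and 10.11 at low and 12.61 and 12.83 at high density in WT, and 10.38 and 10.36 against 10.22 and 10.31 in KO. The 2 WT high density values stood apart from the other 6, which lay within 0.34 of each other. The effect was 2.64 (log2), or 6.25-fold, in WT and -0.10 in KO. Kitl, the ligand of Kit, had 7.46 and 7.48 against 8.91 and 8.67 in WT, and 8.93 and 9.19 against 8.78 and 8.92 in KO, where the densities met. Its effect was 1.32 in WT and -0.21 in KO.

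Hgf, the scatter factor that fibroblasts send to epithelium, was not well above background at low density in either genotype. Its signals at high density were 8.65 and 8.55 in WT and 6.49 and 6.35 in KO, after 6.41 and 5.99, and 5.95 and 5.88, at low density. Taken against the lowest signal well above background, Hgf was at least 5.24-fold higher at high density in WT and at least 1.32-fold higher in KO. Of its other probes, the one tested was at least 2.13-fold higher in WT. Angpt1, the Tie2 ligand made by perivascular cells, had 7.74 and 7.50 at high density in WT, where 6.48 and 6.10 at low density were not well above background, and was at least 2.51-fold higher. In KO it had 6.45 and 6.03 at low and 6.34 and 5.97 at high density, with 1 array of each above background. Met, the Hgf receptor, was not called in either genotype (0.34 and -0.15), and neither were the collagen receptors Ddr1 (-0.32 and -0.38) and Ddr2 (0.95 and 0.48).

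Egfr, the EGF receptor, was called in KO cells alone. Its signal was 12.48 and 12.70 at low and 13.13 and 12.98 at high density in WT, and 9.62 and 10.06 against 12.11 and 12.16 in KO. The KO low density values were the lowest by over 2 log2 units. The effect was 2.30 (4.92-fold) in KO and 0.47 in WT. Of its 5 other probes, 4 were tested in KO, gave 0.74 to 1.49 and had the same sign, and 3 of them were called.

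**Figure D2:**
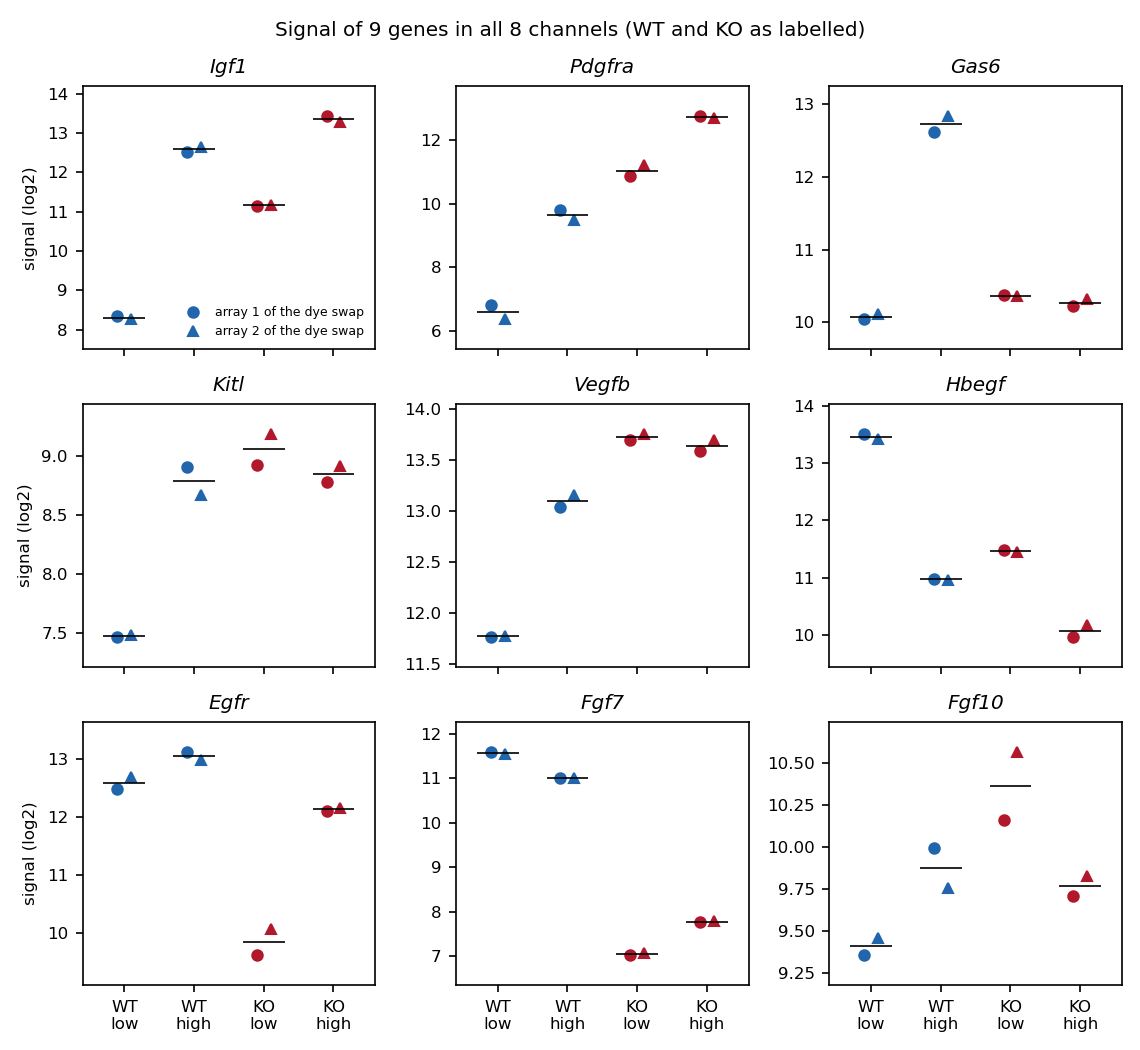
Signal (log2, y axis of each panel with its own range) of 9 genes in WT and KO cells at low and high density. Circles and triangles are the arrays of a dye-swapped pair and the line is their mean. Gas6 is high only in WT cells at high density, near 12.7. Egfr is lowest in KO cells at low density, near 9.8, and at high density also lies lower in KO than in WT cells. Fgf7 lies between 7.04 and 7.79 in all KO channels against 11.01 to 11.60 in WT.

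The difference between the density effects, KO minus WT, was called for 10 of the 31 genes tested in both, 3 higher and 7 lower. Over 14170 gene names, 4.55% were higher and 4.98% lower. The median of the listed genes was -0.11 (log2) against 0.02. With the scanner software's processed signals the split was 5 higher and 7 lower. The lower calls were Gas6 at -2.74, Igf1 at -2.09, Kitl at -1.52, Vegfb at -1.41, Pdgfra at -1.36, Fgf10 at -1.06 and Hgf. No size is given for Hgf, whose low density signals were not well above background in either genotype. By role, 6 of 18 ligands tested and 1 of 13 receptors were lower, and the roles were not tested against each other. The higher calls were Egfr at 1.83, Fgf7 at 1.30 and Hbegf at 1.10. Gas6, Fgf7, Fgf10 and Hbegf have 1 probe each. Kitl, Pdgfra and Hgf rest on their brightest probe alone, and one of the other Igf1 probes had -0.21. The 4 other Egfr probes tested gave 0.81 to 1.14, and 1 of them was called. The Hbegf and Fgf10 calls passed the threshold narrowly and ended, at 0.97 and -0.92 without the second KO array, and Fgf10 at -0.89 without the first WT array.

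Fgf7 and Fgf10 are ligands of the same FGF receptor isoform, made by mesenchyme for epithelium, and their density effects ran opposite ways. Fgf7 had 11.60 and 11.55 at low and 11.01 and 11.01 at high density in WT, and 7.04 and 7.07 against 7.77 and 7.79 in KO, so it had an effect of -0.57 (log2) in WT and 0.73 in KO. Fgf10 had 9.36 and 9.46 against 9.99 and 9.75 in WT, and 10.16 and 10.57 against 9.71 and 9.83 in KO, with effects of 0.46 and -0.60. Neither effect reached 2-fold by itself. On all arrays of a genotype, 9 of the 31 genes had opposite signs in WT and KO, against 15.2% of 14170 gene names.

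The genotypes were then set side by side at each density, from the same channels as above. Most Lats2 probes went against the KO label, and slide could not be told apart from genotype, so each direction below is that of the labels. At low density, 8 of 33 genes tested were called higher in KO and 6 lower, against 7.28% and 8.41% of 15255 gene names. At high density 5 of 35 were higher and 6 lower, against 6.67% and 7.80% of 15621. The medians were 0.25 (log2) and 0.10, against 0.03 and 0.02 over all gene names. Pdgfra, Pdgfd, Fgf18 and Vegfc were called higher, and Fgf7 and Ddr2 lower, at both densities. These are 6 of the 32 genes tested at both, against 8.04% of 14739 gene names called the same way at both. None was called in opposite directions, against 0.163%.

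The largest of these differences were those of Fgf7 and Pdgfra. Fgf7 was lower in KO by -4.52 (log2) at low density, or 23.0-fold, and by -3.22 at high density, with both dyes within 0.08 of each other. Pdgfra was higher by 4.45 (4.06 and 4.84 in the 2 dyes) at low and 3.08 at high density, and its dimmer probe, not well above background in WT, was at least 1.69-fold and at least 2.58-fold higher. Vegfc was higher by 2.21 and 1.90, and Fgf18 by 1.66 and 1.86.

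Pdgfd, a PDGF-B receptor ligand, had signals of 9.14 and 9.14 at low and 9.24 and 9.28 at high density in WT, and 10.26 and 10.34 against 10.95 and 11.04 in KO. It was higher by 1.16 (log2) and 1.73, while its second probe had 0.58 and 0.60, so the low density call ended with the mean over probes. Ddr2, a receptor for fibrillar collagen, had 13.05 and 12.81 against 13.81 and 13.96 in WT, and 11.93 and 11.73 against 12.07 and 12.56 in KO. It was lower by -1.10 and -1.57, and its second probe, at 0.03 and -0.47, did not share the call. With the mean over probes the low density call of Ddr2 ended.

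By the brightest probe, the following were called at low density and not at high density. Igf1 was higher in KO by 2.86 (log2), Vegfb by 1.95, Kitl by 1.59 and Figf by 1.39. Egfr was lower by -2.75, Ghr by -1.72 and Angpt2 by -1.16, and Hbegf was 3.99-fold lower. Ghr had signals of 13.21 and 13.29 at low and 12.75 and 12.93 at high density in WT, and 11.46 and 11.58 against 11.86 and 12.03 in KO. Angpt2, which opposes Angpt1 at the Tie2 receptor, had 7.46 and 7.59 against 7.06 and 7.11 in WT, and 6.29 and 6.44 against 6.08 and 6.24 in KO, where 1 array of each density was above background. Its call ended without background correction and Kitl's with the mean over probes. All 5 other Egfr probes were lower too, by -0.41 to -2.55, and 3 of them were also called at high density (-1.58, -1.26 and -1.05). One other Ghr probe was called at high density, at -1.11.

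Called at high density and tested but not called at low density, Gas6 was lower in KO by -2.46 (log2) and Met by -1.39, and Nrg1 was higher by 1.43. Hgf, lower by -2.18, and Angpt1, lower by -1.46, were called at high density and not tested at low density. The Angpt1 value rests on signals of which 1 of the 2 KO arrays was not well above background, and the second Hgf probe was at least 2.15-fold lower. Met had signals of 10.85 and 10.93 at low and 11.24 and 11.22 at high density in WT, and 9.91 and 10.06 against 9.80 and 9.88 in KO. Both other Met probes were below 0 without being called (-0.30 and -0.83). Nrg1, the neuregulin that activates Erbb3 and Erbb4, had 7.71 and 7.88 against 7.71 and 7.77 in WT, and 8.48 and 8.42 against 9.24 and 9.09 in KO. Of its 4 other probes, 2 were called higher, and the range was 0.05 to 1.70.

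**Figure D3:**
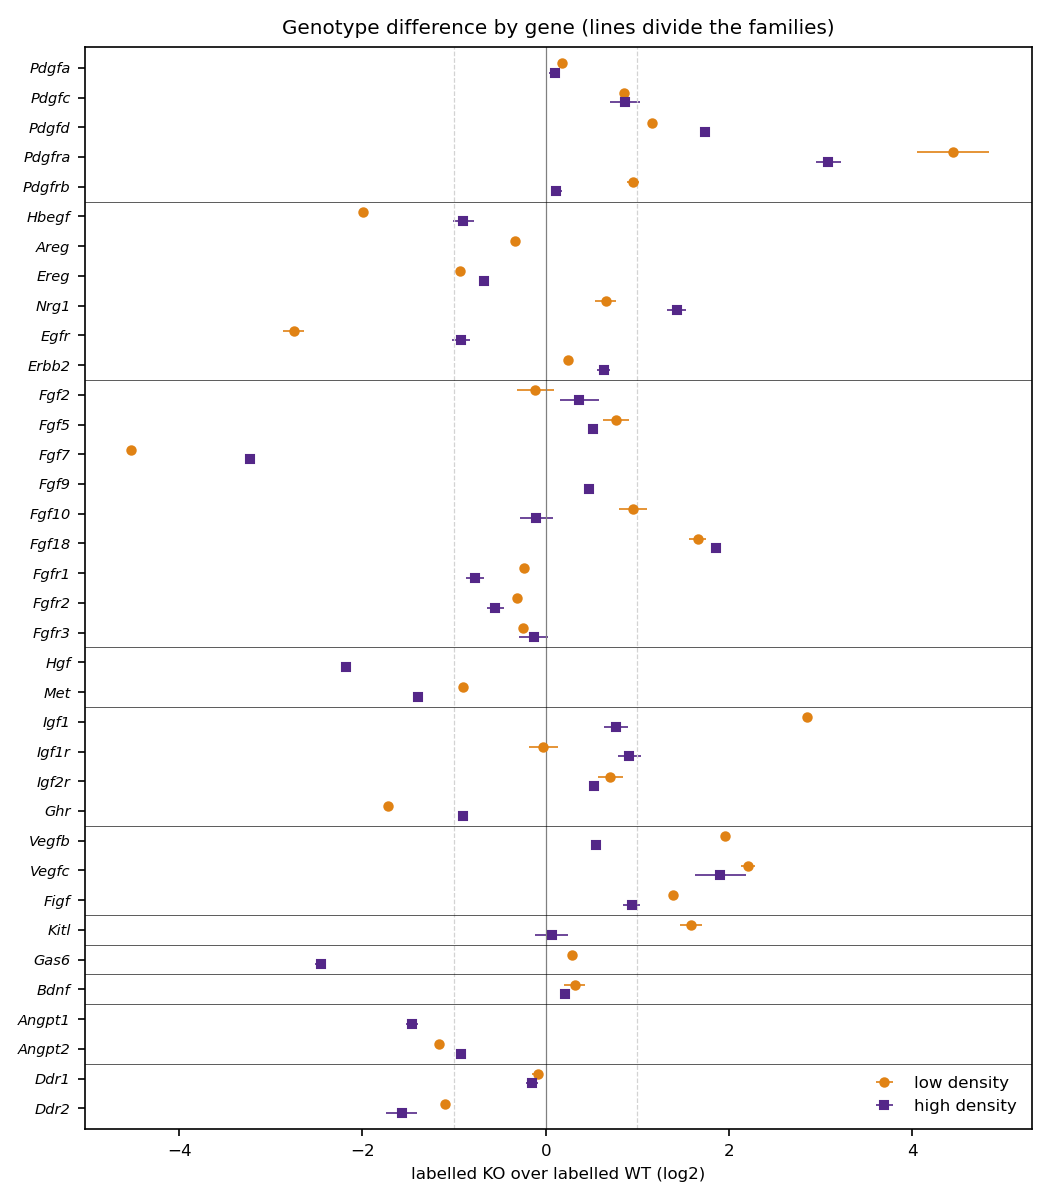
Difference of KO from WT (log2, x axis) for each gene tested, circles at low and squares at high density, with bars from one dye's value to the other's, dashed lines at 2-fold and horizontal lines between families. Fgf7 lies farthest left at -4.52 and -3.22 and Pdgfra farthest right at 4.45 and 3.08. Gas6 differs at high density, and Igf1 and Egfr differ more at low than at high density.

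Read by condition, several genes stood apart in 1 group. KO cells at low density already had Igf1, Vegfb and Kitl well above WT cells at low density, while at high density the genotypes differed by 0.77, 0.54 and 0.06 (log2). These comparisons share channels with the density effects and are the same measurements arranged another way. By role, 1 of 13 receptors was called higher in KO and 3 lower at low density, and 1 and 2 at high density. Of the ligands, 7 of 20 were higher and 3 lower at low density, and 4 and 4 of 22 at high density. All gene names had 7.28% higher and 8.41% lower at low density and 6.67% and 7.80% at high density, and the roles were not tested against each other.

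The 13 genes tested but never called were Pdgfa, Pdgfc, Areg, Ereg, Erbb2, Fgf2, Fgf5, Fgf9, Fgfr2, Fgfr3, Igf1r, Igf2r and Ddr1. Of these, 7 were called under some other setting at the same 2-fold threshold. The software's processed signals called Areg, Ereg, Fgf2, Fgf5 and Fgf9, all dim genes, and an offset of 10 called these but Fgf2. Median centring called Igf1r. Igf1r was also called with an array left out, and Igf1r and Pdgfc in 1 dye alone. As reported, their density effects ran from -0.93 to 0.78 (log2) in WT and from -0.38 to 0.60 in KO. Their genotype differences ran from -0.94 to 0.85 at low and from -0.67 to 0.91 at high density. The -0.94 is that of Ereg, whose second probe had 0.08. The Ereg probes are placed on opposite strands, and which of them reads the transcript was not tested. Fgf5 was above background in KO alone, and Fgf9 in KO at high density alone. Erbb2, the coreceptor of the EGF family, had -0.00 in WT and 0.38 in KO for density, and its SD between spots was at most 0.05.

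**Figure D4:**
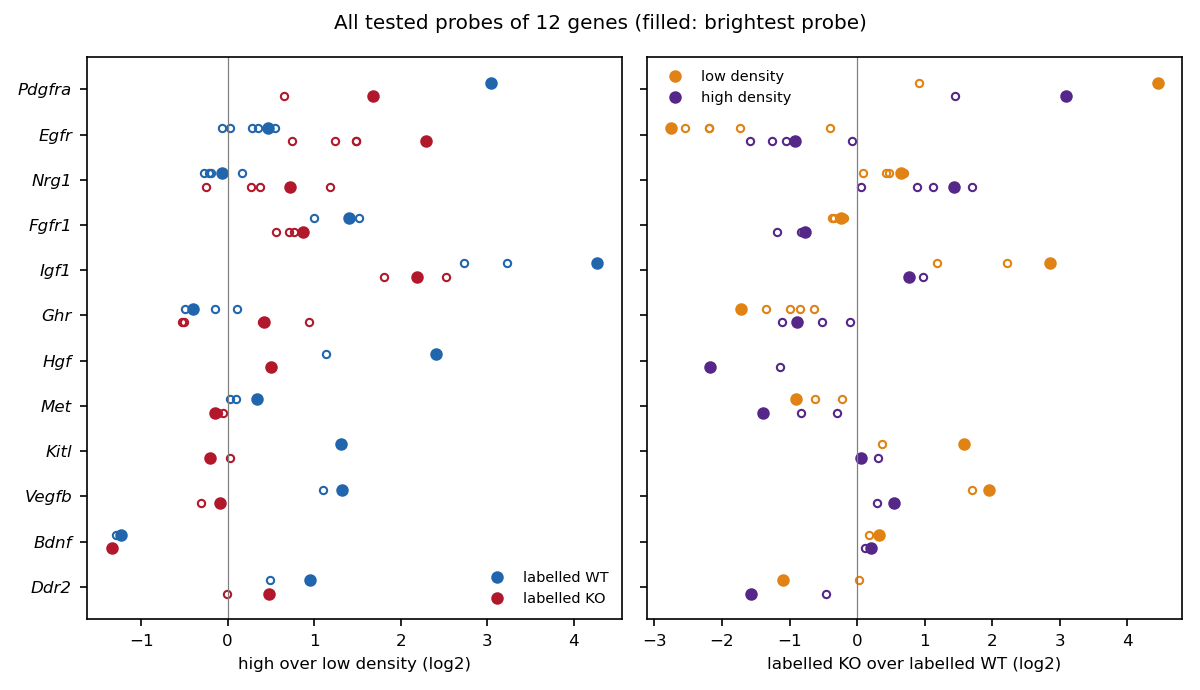
All tested probes of 12 genes, with density effects (left, log2) in WT and KO and genotype differences (right, log2) at low and high density. Filled points are the brightest probe of a gene and open points its other probes. The probes of Bdnf and Vegfb lie close together, those of Pdgfra and Igf1 have the same sign and spread over more than 1 log2 unit for Pdgfra in all 3 comparisons that tested both probes and for Igf1 in WT density and low density genotype, and those of Ghr fall on both sides of 0 for density in KO.

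Of the 57 calls above, 28 had another tested probe of the same gene. For 27 of these all other probes had the same sign, the exception being Ddr2 at low density, and for 14 all were called the same way. In 8 none was.

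The other ligands and receptors of these families, 57 genes of which 55 had a probe, were mostly dim, and 30 were tested for density in WT and 27 in KO. In WT 4 were called higher and 3 lower, 13.3% and 10.0% against 9.41% and 6.09% of all gene names. In KO 5 were higher and 3 lower, 18.5% and 11.1% against 7.15% and 3.87%. Ptn, the heparin-binding factor pleiotrophin, had 5.36 (log2) in WT and 3.64 in KO, Flt1, the VEGF receptor 1, had -1.19 and -2.20, and these were the genes of the list called in the difference, at -1.71 and -1.01. Vegfa, the main endothelial growth factor, was lower in KO at low and high density by -1.40 and -1.28, Igf2 by -1.20 and -1.83, and Ntrk3, the neurotrophin 3 receptor, by -2.06 and -2.80. Ptk7, a kinase-dead receptor, was higher by 1.47 and 1.33. The medians over the list were between -0.03 and 0.09 in the 5 comparisons, near those of all gene names.

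Flt1 is also an endothelial marker, and it was the one member of that list of 8 above background in all channels. The summed signal of the list (log2) was 11.2 to 11.5 in WT and 13.0 to 13.1 in KO at low density, and 10.4 to 10.5 and 11.1 to 11.2 at high density. The macrophage list, of 8 genes, had 10.0 to 10.1 in WT and 10.8 to 12.5 in KO. Of its 4 genes tested, 1 was called lower in KO at each density and 1 higher. The higher one was Lyzs (lysozyme), by 3.90 and 4.75. The neural and glial list had 11.7 to 11.8 in WT at high density and 10.4 to 10.6 elsewhere. Of its 3 genes tested for density, 1 was called higher and 1 lower in WT, and 2 higher and 1 lower in KO. Among them S100b had density effects of 4.46 in WT and 1.98 in KO. The epithelial list had 10.6 to 10.7 in WT at low density and 8.5 to 9.4 elsewhere, and in it Krt19 had -2.17 and -2.19. Of the 9 fibroblast genes, 3 were called higher at high density and 2 lower in WT, and 6 and 1 in KO. In the difference of the density effects, 4 were higher and 1 lower. All gene names had, in the same order, 9.41% and 6.09%, 7.15% and 3.87%, and 4.55% and 4.98%. The part of these cell types in the results was not tested.

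Of the signalling relays that receptors act through, 33 of 35 genes were tested. In WT 4 were called higher and 1 lower at high density (12.1% and 3.03%, against 9.41% and 6.09% of all gene names). In KO none was higher and 1 was lower (3.03%, against 3.87%). Akt2, the kinase downstream of phosphatidylinositol 3-kinase, had 1.42 (log2) in WT and 0.21 in KO, a difference of -1.21. Stat5a, which growth hormone receptor signalling uses, had 1.43 and 0.23, a difference of -1.20. Irs1, the adaptor of the insulin and IGF1 receptors, was the relay called in both genotype comparisons, higher by 2.09 and 1.56 in KO. The medians of the list were between -0.11 and 0.09.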

How the data were processed

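Total RNA of the MEFs was hybridised by the authors to 4 two-colour Agilent mouse arrays (44K design), scanned and read with Agilent Feature Extraction 10.5.1.1, per the submitters' processing notes and the file headers. The deposited scanner files hold spot intensities, background and flags, and the software's log10 ratio of Cy5 over Cy3. The deposited series matrix holds that log10 ratio rounded, and turned to high over low density on every array (largest difference 0.005). Its scale, centring and direction were thereby settled.

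Mean intensities were background-corrected (normexp, offset 50) and loess-normalised within arrays, with control spots at weight 0, in limma 3.58.1 (R 4.3.3). Spots of a probe without outlier flags were averaged, and single channels were put on a common scale by A-quantile normalisation. Of 41174 probes, 40998 had a value on all arrays. To enter a density comparison a probe had to be well above background on the whole pair in at least 1 density, and to enter a genotype comparison in at least 1 genotype. No adjusted p-value was computed, since there was 1 replicate per genotype and density. The pipeline was tested on simulated data. The promoter search with the narrower AP-1 letters was added after the first matches were seen. The listed genes, the 2 pathway lists and the marker lists were chosen with earlier results of these data known. Values in every channel were given for each gene called in a comparison, as a range for Vegfb in KO. For the pathway lists, those called in the difference or in both genotype comparisons were named. Some signalling relays that this rule names are not reported here. Probe positions are those of the files (mm8). Whether the swapped arrays used the same RNA extracts is not given in the sources used here. Alternatives were the background correction and offset, centring, the software's signals, the series matrix, the threshold, the filter, the mean over probes, quantile normalisation and leaving out each array.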

Additional observations from a re-analysis of the deposited data

Results flagged for a closer look

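For 9 of the 31 genes tested in both genotypes, the density effect had one sign on both WT arrays and the opposite sign on both KO arrays, against 15.2% of 14170 gene names with such a pattern, and the difference was not tested, since there was 1 sample per genotype and density. The KO effect minus the WT effect (log2) was -2.74 for Gas6, -1.52 for Kitl, -1.41 for Vegfb, 1.30 for Fgf7 and -1.06 for Fgf10, all beyond 2-fold. It was 0.83 for Ghr, 0.78 for Nrg1, 0.48 for Fgf2 and -0.49 for Met, all under 2-fold. For Ghr, 2 of the 4 other probes had negative density effects in KO (-0.50 and -0.52), unlike the brightest at 0.42. For Vegfb the second probe gave the same difference, -1.41. Fgf2 was not above background at high density in WT, its KO effect was 0.10, and its second probe had -0.04 in KO. For Nrg1, 1 WT array was at -0.0006, and another probe had 0.17 in WT and 1.18 in KO, a difference of 1.01 that was called. The software's processed signals and the series matrix called the difference for Nrg1 and Fgf2.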

How the results depend on the processing

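All 692 values of called genes under the alternatives kept their direction, and 566 moved by less than the SD of a single value. Changing the threshold or the filter leaves the values themselves as reported, so those among the 692 could not move. For density and the difference, the series matrix repeats the software's ratios. At the 1.4-fold threshold the calls increased from 8 to 16 for density in KO, from 10 to 16 for the difference, and from 14 to 22 and 11 to 26 for genotype at low and high density. All other totals of calls stayed within 1.5 times those reported. By direction, the software's processed signals moved WT density lower calls from 2 to 4, higher calls of the difference from 3 to 5, and higher calls for genotype at high density from 5 to 8, and the series matrix did so for density and the difference. Leaving out each array in turn, the counts ranged from 14 to 15 for density in WT, 8 to 9 for density in KO, 9 to 10 for the difference, 14 to 16 for genotype at low density and 13 to 14 at high density. With an array left out, the rule on signs had no effect. For genotype, leaving out an array also dropped the other genotype's array with the same dyes. Those ranges therefore hold the results of the 2 single dyes. Median centring moved the median of all gene names for density by -0.11 in WT and -0.14 in KO (log2), with all calls on the listed genes kept. Requiring signal above background in every channel ended the WT density calls of Hgf and Angpt1, the Hgf difference, the Angpt2 call at low density and the Angpt1 call at high density. The mean over probes ended the Met call at high density and those of Pdgfd, Kitl and Ddr2 at low density. No paired analysis was possible because the results come from no test. With 4 arrays and 1 sample a group, biological spread is unknown, and the number of arrays limits the precision.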
